A study of Mus musculus with 3 samples.

Results

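Endothelial cells take on different identities along a vascular bed, and 10 genes that serve as markers of these zones were followed through single cells of the mouse iridocorneal angle. They were chosen as a named set from the 31053 genes of the count tables. *Plvap* builds the diaphragms of fenestrae and caveolae, and *Ihh* encodes the secreted ligand Indian hedgehog. *Gja4* and *Gja5* encode gap junction connexins of arteries, *Bmx* a kinase of arterial endothelium, *Sox17* a SOXF transcription factor of arterial fate and *Efnb2* the arterial ligand ephrin-B2. *Ephb4* encodes the venous receptor of ephrin-B2, *Nr2f2* the transcription factor COUP-TFII of venous and lymphatic fate, and *Rgcc* a regulator of the cell cycle induced by complement. Droplet libraries were prepared from the iridocorneal angle and limbus of 6 weeks-old mice of mixed strain, with the eyes of several mice pooled in each. The study describes pools of both sexes, which the counts of the controls do not show. The 2 control libraries came from *Angpt1* flox/flox mice. The *Angpt1*ΔNC library came from *Angpt1* flox/flox;Wnt1Cre+ mice, which carry the same floxed alleles and in which Wnt1-Cre deletes *Angpt1*, the gene of the ligand angiopoietin 1, in cells of neural crest origin. Vascular endothelium is not, as a rule, of neural crest origin.

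Arteries, capillaries and veins are set apart by standing programmes of gene expression: NOTCH signalling and SOXF factors hold arterial identity, COUP-TFII holds venous identity, and ephrin-B2 on arterial cells meets EPHB4 on venous cells at their border. Fenestrated capillaries, such as those of the ciliary processes, carry PLVAP, whereas Schlemm's canal is a vessel of mixed venous and lymphatic character that drains aqueous humor. Hedgehog ligands from one cell act on neighbours that carry the receptor PTCH1, and *Ptch1*, *Gli1* and *Hhip* are switched on in the responding cells.

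The deposited cluster labels were used as they stand: SC for Schlemm's canal, LEC for lymphatic endothelium, EC2 to EC4 for blood endothelium, TM1 to TM11 for trabecular meshwork and stromal groups, and numbers for the rest. Kept cells numbered 9076 and 10160 in control replicates 1 and 2 and 6772 in *Angpt1*ΔNC, with medians of 6329.5 to 7444 UMIs (unique molecules) per cell, and 13 to 25 cell barcodes were shared between any pair of libraries. *Angpt1* stood at 37.8 and 39.3 UMIs per 1000000 (counts per this number are written CPM) in the controls and at 0.391 in *Angpt1*ΔNC. The X-inactivation transcript *Xist* had 3 and 2 UMIs in the controls and 43346 in *Angpt1*ΔNC, so female cells were all but absent from the controls, and sex cannot be told apart from genotype except in cells typed as male. The 8 endothelial markers summed to between 51.7 and 117 UMIs per 10,000 in every library of SC and EC2 to EC4, with none at 0. Lymphatic markers summed to 264 to 514 in LEC and at most 0.302 in EC2 to EC4. In SC they summed to 75.5 and 42.0 in the controls and 6.43 in *Angpt1*ΔNC, in which only 15 cells bore this label.

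All 10 are protein-coding genes of GRCm38, with annotated spans of chr8:71497765-71511752 for *Plvap*, chr1:74945315-74951672 for *Ihh*, chr4:127311421-127314039 for *Gja4*, chr3:96904693-97077416 for *Gja5*, chrX:164192842-164258193 for *Bmx*, chr1:4490931-4497354 for *Sox17*, chr8:8617434-8661242 for *Efnb2*, chr5:137350109-137378669 for *Ephb4*, chr7:70351944-70366735 for *Nr2f2* and chr14:79288756-79301645 for *Rgcc*. *Gja5* and *Ephb4* lie on the plus strand and the other 8 on the minus strand. Promoter windows from 250 bases before to 50 after the transcription start were matched for 8 of the 10 genes in RefSeq (GRCm38.p6); *Plvap* and *Sox17* had no entry. Those of *Ihh* and *Gja4* are shown, with CpG dinucleotides in capitals. Of these 8 genes, only they passed the genotype test in the whole endothelium with a change above 1 log2 unit. Their changes were in opposite directions, and that of *Gja4* did not pass in every setting. The *Ihh* window is chr1:74951623-74951922 and the *Gja4* window chr4:127313990-127314289, both read on the minus strand.
Ihh: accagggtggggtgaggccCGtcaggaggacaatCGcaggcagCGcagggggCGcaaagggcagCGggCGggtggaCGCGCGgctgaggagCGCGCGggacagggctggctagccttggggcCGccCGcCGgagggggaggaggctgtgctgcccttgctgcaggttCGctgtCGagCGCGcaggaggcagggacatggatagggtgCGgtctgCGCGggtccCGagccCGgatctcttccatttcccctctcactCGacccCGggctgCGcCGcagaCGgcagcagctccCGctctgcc
Gja4: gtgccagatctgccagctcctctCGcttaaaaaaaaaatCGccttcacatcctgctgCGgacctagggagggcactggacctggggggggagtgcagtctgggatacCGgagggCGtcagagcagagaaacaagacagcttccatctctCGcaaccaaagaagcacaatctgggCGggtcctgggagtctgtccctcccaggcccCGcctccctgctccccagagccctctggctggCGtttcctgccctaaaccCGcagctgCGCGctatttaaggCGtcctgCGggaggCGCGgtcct
The *Ihh* window held 30 CpG at a GC content of 72.7%, and the *Gja4* window 16 CpG at 62%. The medians over all 32851 windows of this length were 7 CpG and 52.7%. No readout of these data bears on methylation or on binding at these windows.

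*Plvap* and *Ihh*, the genes of fenestrated endothelium and of its hedgehog ligand, were both highest in EC3. The *Plvap* level, the mean over cells of UMIs per 10,000, was 42.6 and 40.5 in EC3 of the controls and 20.4 in *Angpt1*ΔNC. In EC4 it was 24.4 and 24.0 in the controls and 18.9 in *Angpt1*ΔNC. EC3 and EC4 were apart in the controls, but the *Angpt1*ΔNC value of EC3 lay within the range of EC4. EC2 stood at 11.5, 10.99 and 3.36 and SC at 9.07, 9.89 and 6.22, in the same order of libraries, and both lay below EC4 in every library. *Plvap* was thus found in all 4 labels, with every EC3 cell positive, and 94.6%, 94.9% and 90.9% of its UMIs in kept cells came from endothelial labels. In the epithelial clusters 4 and 5, which are not vessels, between 0.156% and 1.21% of cells held a *Plvap* UMI at median depths of 12359 to 21528 UMIs, deeper than the 7364 to 10749 of EC3.

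*Ihh* was found in fewer cells and in fewer labels. EC3 held 218 and 199 *Ihh* UMIs in the controls and 13 in *Angpt1*ΔNC, at levels of 2.20, 1.78 and 0.251 per 10,000. In the controls 43.2% (exact 95% interval 34.1 to 52.7) and 50% (40.7 to 59.3) of EC3 cells were positive, and in *Angpt1*ΔNC 12.1% (4.99 to 23.3). These binomial and Poisson intervals cover counting error only. The intervals of the controls overlap each other and not that of *Angpt1*ΔNC. After each cell was thinned to 2000 UMIs, 26.7%, 23.7% and 3.51% of EC3 cells were positive. EC4 held 16, 10 and 1 *Ihh* UMIs, at levels of 0.505, 0.321 and 0.0287. SC held none in any library, where 0 of 63 cells in control replicate 2 allows a share of cells with a UMI of up to 4.76%, which does not limit the share that expresses it at a level this low, and EC2 held 0, 0 and 1 UMI. Of the 30 labels outside the endothelium none reached a level of 0.1 in either genotype, and epithelial clusters 4 and 5 held 1 *Ihh* UMI in all.

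**Figure D1:**
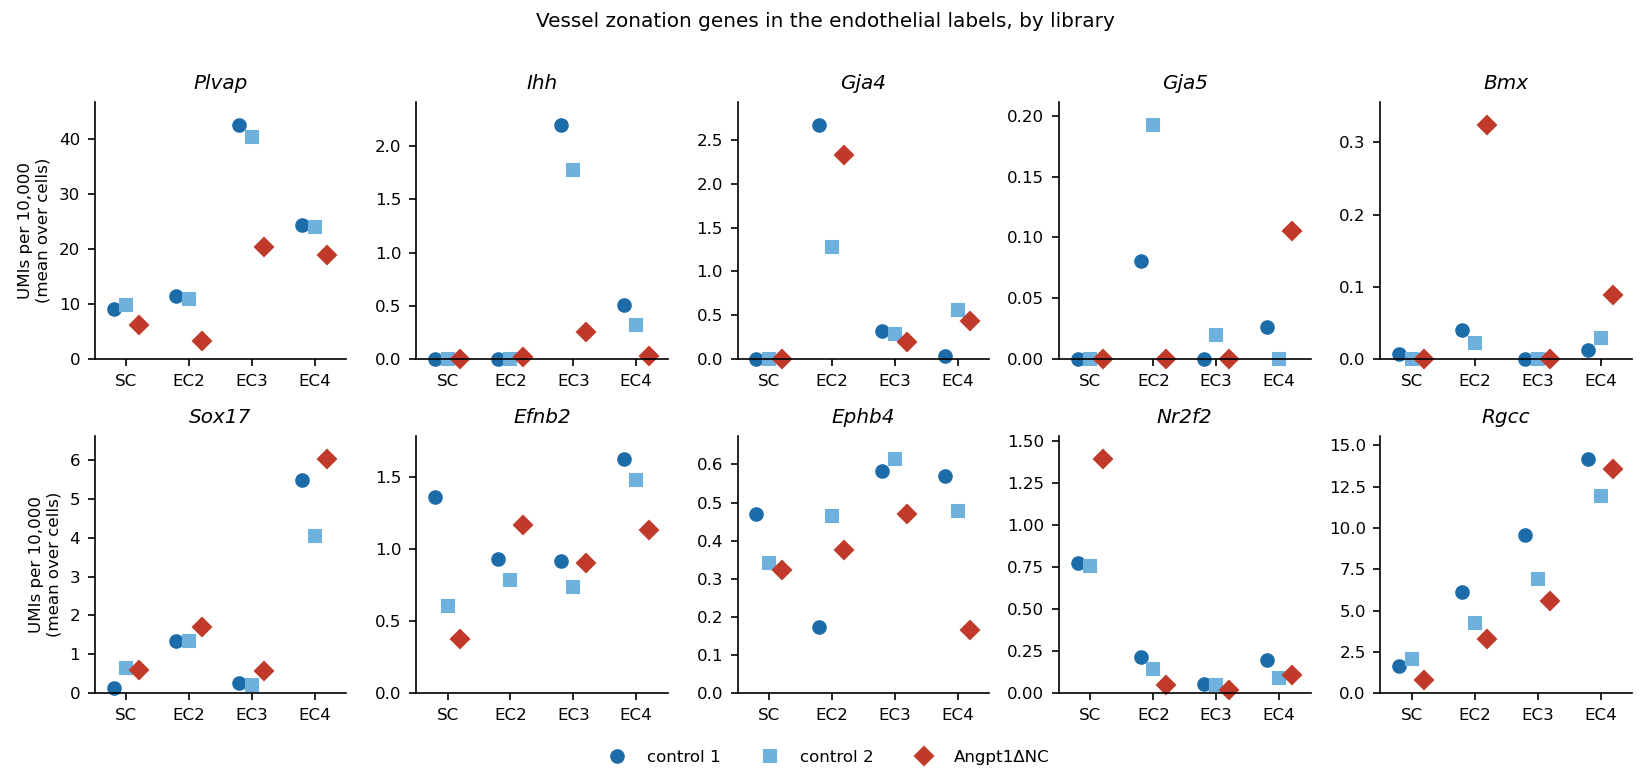
Level of each of the 10 genes (vertical axis, mean over cells of UMIs per 10,000, each panel on its own scale from 0) in SC, EC2, EC3 and EC4, with 1 point for each of the 2 control libraries and the *Angpt1*ΔNC library. *Plvap* and *Ihh* peak in EC3, *Gja4* in EC2, *Sox17* and *Rgcc* in EC4 and *Nr2f2* in SC, and the *Angpt1*ΔNC points of *Plvap* and *Ihh* in EC3 lie at 20.4 and 0.251, below both controls.

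The 5 arterial genes did not share 1 label. *Gja4*, which encodes connexin 37, was highest in EC2, at 2.67 and 1.28 in the controls and 2.32 in *Angpt1*ΔNC, and lower in EC3, at 0.325, 0.288 and 0.194. These 2 labels did not overlap. EC4 stood at 0.0392, 0.557 and 0.439, a spread between the controls wider than the gap between genotypes, and SC held 0, 1 and 0 *Gja4* UMIs. *Gja5*, which encodes connexin 40, gave only 2, 2 and 0 UMIs in EC2, 0, 1 and 0 in EC3, and 2, 0 and 10 in EC4. The 10 UMIs came from 2 cells, so that no order of labels can be read for *Gja5*. *Bmx* gave 1, 1 and 5 UMIs in EC2, 1, 2 and 3 in EC4, 1, 0 and 0 in SC and none in EC3, again too few to rank.

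*Sox17* and *Efnb2*, by contrast, were highest in EC4. *Sox17* stood at 5.48, 4.04 and 6.01 in EC4, at 1.33, 1.34 and 1.70 in EC2, at 0.147, 0.648 and 0.597 in SC and at 0.272, 0.206 and 0.582 in EC3. EC4 lay above EC2 and EC2 above SC without overlap, whereas SC and EC3 did not differ beyond their spread. Of all *Sox17* UMIs, 98.6%, 98.3% and 99.1% came from endothelial labels, the largest share of the 10 genes in each library. *Efnb2* was flatter: EC4 held 1.63, 1.48 and 1.14, SC 1.36, 0.603 and 0.381, EC2 0.936, 0.787 and 1.17, and EC3 0.917, 0.737 and 0.903. Its neighbours in this order overlapped over the 3 libraries.

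Of the venous genes, *Nr2f2* set SC above the 3 blood endothelial labels. It stood at 0.774 and 0.760 in SC of the controls and at 1.39 in *Angpt1*ΔNC, against 0.214, 0.147 and 0.0505 in EC2, 0.198, 0.0907 and 0.111 in EC4, and 0.0544, 0.0508 and 0.0215 in EC3. SC did not overlap with EC2, and EC4 did not overlap with EC3. *Nr2f2* UMIs were found in 41.3%, 38.1% and 46.7% of SC cells. LEC stood at 2.31, 0 and 1.43 from its 3, 1 and 12 cells, so SC cannot be ranked against it. *Ephb4* did not separate the labels: EC3 held 0.583, 0.614 and 0.471, EC4 0.570, 0.478 and 0.167, SC 0.471, 0.341 and 0.324, and EC2 0.173, 0.465 and 0.377, so that the arterial ligand and its venous receptor were both found in all 4 labels. LEC gave *Ephb4* levels of 4.13, 0.735 and 1.20, from too few cells to place it.

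*Rgcc* was the member with the widest reach. It stood at 14.2, 11.95 and 13.6 in EC4, 9.58, 6.90 and 5.56 in EC3, 6.11, 4.27 and 3.26 in EC2 and 1.64, 2.09 and 0.813 in SC. EC4 lay above EC3, and EC2 above SC, in every library, while EC3 and EC2 overlapped. Only 10.0%, 9.19% and 14.9% of its UMIs came from endothelial labels.

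Arterial genes and *Nr2f2* were also counted in the same cells. Of the 618 control cells of SC and EC2 to EC4, 61 (9.87%, exact 95% interval 7.63 to 12.5) held UMIs of *Nr2f2* and of at least 1 of the 5 arterial genes. SC held the most, where 12 of 46 and 18 of 63 control cells and 3 of 15 *Angpt1*ΔNC cells held both. If the genes were found independently of each other, 23.3%, 18.7% and 18.7% of SC cells would hold both, against 26.1%, 28.6% and 20% observed. EC2 held 2, 3 and 0 such cells, EC3 3, 6 and 1, and EC4 12, 5 and 5. *Nr2f2*-positive control cells of SC had a median of 16791 UMIs against 5143 in the others, and the share of cells with both moved with depth: after thinning to 2000 UMIs it was 1.71% in the controls. Without *Efnb2* it was 5.66%. *Efnb2* was found in 29 of the 43 *Nr2f2*-positive SC cells of the controls against 10 for *Sox17* and 1 for *Gja4*.

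Other zonation genes did not line up with the EC labels either. Of the 16 arterial list genes at 0.2 or more per 10,000 in a control label, 7 were highest in EC3, 4 in EC4, 3 in EC2 and 2 in SC. *Nrp1* (EC3 2.97, SC 0.0888) and *Fbln5*, which encodes an elastic fibre protein (SC 4.49, EC3 0.0547), had the largest ratios. Of 15 venous list genes, 7 were highest in EC2, among them *Vcam1* (3.98, against 0.0538 in EC4), and 4 in SC, led by *Selp*, the gene of P-selectin (18.7, against 0.215 in EC3). Among these labels EC2 thus held both the highest *Gja4* level and the most venous list genes. Of 17 capillary and fenestrated list genes, 8 were highest in EC4 and 7 in EC3, with *Esm1* (EC4 5.75, SC 0.00750) and *Igfbp3* (EC3 24.9, SC 0.293) at the largest ratios. Levels of labels were compared as descriptions without a test, since the labels come from clustering and 8 of the 10 genes (all but *Ephb4* and *Nr2f2*) are in the deposited table of integrated values.

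Outside the endothelium the genes fell into 2 kinds. *Plvap*, *Ihh* and *Sox17* had over 90% of their control UMIs in endothelial labels, whereas *Gja4* had 1.33% and 1.51%, *Nr2f2* 2.94% and 3.00%, and *Efnb2* 10.9% and 9.87%. *Gja4* was highest in cluster 21, at 25.7, 20.1 and 17.1, followed by cluster 20 at 12.7, 11.9 and 13.4. Clusters 19 to 21 carry the markers of pericytes and smooth muscle: cluster 20 held *Rgs5* at 75.1 to 92.3, and clusters 19 and 21 held *Myh11* at 7.44 to 16.8 per 10,000. The study names cluster 19 smooth muscle, apart from the pericytes of cluster 20 and the vascular smooth muscle of cluster 21. The *Gja4* level of cluster 19 was only 0.198, 0.181 and 0.0177. Together these clusters, grouped here as mural, held 70.1%, 59.6% and 26.8% of all *Gja4* UMIs. *Nr2f2* peaked in TM6, at 1.87, 2.17 and 2.32, and *Efnb2* was as high in TM9, at 1.51, 1.64 and 1.17, as in EC4. *Rgcc* was highest in TM11, at 15.9, 17.2 and 5.86, and in TM9, at 15.1, 11.3 and 3.74. The *Bmx* control mean was highest in cluster 3, at 0.0319, close to EC2 at 0.0312.

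**Figure D2:**
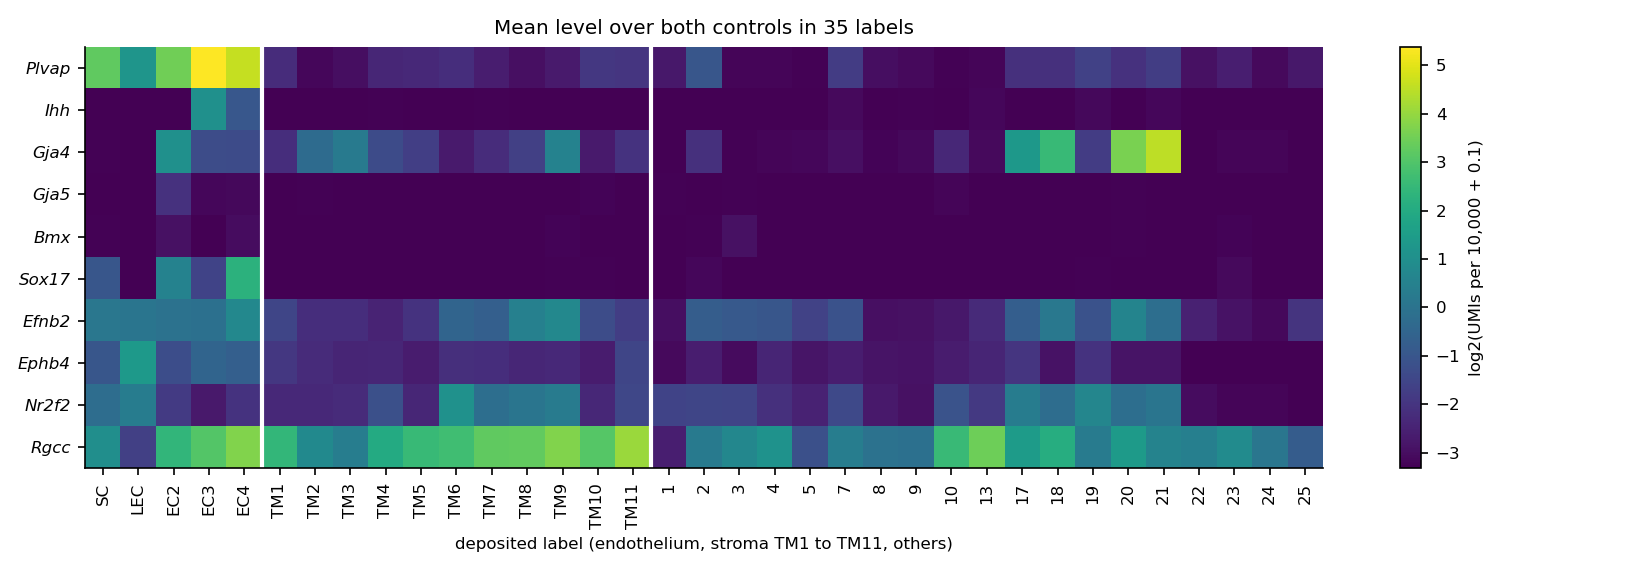
Control mean of each gene (rows) in each of the 35 deposited labels (columns), as log2 of the level per 10,000 plus 0.1. *Plvap*, *Ihh* and *Sox17* stand out in the endothelial columns, *Gja4* in clusters 21 and 20, and *Rgcc* across most TM labels.

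The comparison of genotypes asked how these genes stood when the *Angpt1* of neural crest cells was missing. UMIs were summed per library over all endothelial labels and tested with edgeR's quasi-likelihood test over 9660 genes, with 2 control libraries against 1 and 1 residual degree of freedom, so that the lone library is assumed to vary like the controls. In such sums a change in the makeup of cells and a change in RNA per cell cannot be told apart. The study reports that retinal pigment epithelium was nearly absent from *Angpt1*ΔNC and gives dissection as the likely reason. It proposes that EC3 came from the peripheral choriocapillaris. EC3 held 118 and 118 cells in the controls and 58 in *Angpt1*ΔNC. The part of dissection in the differences between genotypes was not tested. *Ihh* and *Plvap* fell, and *Gja4* and *Sox17* rose. These 4 of the 10 genes passed an adjusted p of 0.05, as did 12.9% of all genes tested (8.12% higher and 4.82% lower), with a median log2 change of -0.02 over all genes.

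*Ihh* had 234 and 209 UMIs in the endothelium of the controls and 15 in *Angpt1*ΔNC, a log2 change of -3.10 ± 0.31 (SE, edgeR adjusted p = 2.45e-09). *Plvap* had 6330, 7534 and 2542 UMIs and a log2 change of -0.66 ± 0.15 (adjusted p = 0.00188). In both genes the *Angpt1*ΔNC value lay below both controls after scaling for depth. *Sox17* had 476, 405 and 523 UMIs, a change of 1.02 ± 0.17 (adjusted p = 3.40e-05), and *Gja4* had 89, 110 and 122 UMIs, a change of 1.08 ± 0.20 (adjusted p = 0.000223). *Gja4* was not called with EC2, EC3 and EC4 in equal proportions (0.44, adjusted p = 0.164), nor by DESeq2 (adjusted p = 0.179). LEC, with 3, 1 and 12 cells, held 19 *Gja4* UMIs in *Angpt1*ΔNC and none in the controls. Within labels *Gja4* was not called, at 0.15 in EC2, -0.02 in EC3 and 1.17 in EC4 (edgeR adjusted p = 0.881, 0.988 and 0.447). *Sox17* was called in EC3 alone and stood at 0.44 in EC4 (adjusted p = 0.387) and -0.36 in EC2 (0.679). EC4, the label with most *Sox17*, made up 96 of 295, 107 of 327 and 87 of 209 endothelial cells. *Plvap* was not called among male-typed cells, of which *Angpt1*ΔNC had 66 (-0.32, adjusted p = 0.195). The other 6 genes did not pass: *Gja5* (4, 3 and 10 UMIs; 2.25 ± 0.97, adjusted p = 0.132), *Bmx* (3, 3 and 10 UMIs; 2.46 ± 1.00, adjusted p = 0.109), *Efnb2* (0.16 ± 0.18), *Ephb4* (-0.22 ± 0.21), *Nr2f2* (0.00) and *Rgcc* (0.08 ± 0.16).

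Within labels, *Plvap* passed in EC3 and EC2, and *Ihh* in EC3 only. In EC3, 3 of the 7 genes tested passed, against 7.3% of 7956 genes (4.85% higher and 2.45% lower). *Plvap* (4156, 5134 and 957 UMIs) fell by 0.84 ± 0.14 on the log2 scale (edgeR adjusted p = 6.22e-05), and *Ihh* fell by 2.57 ± 0.36 (adjusted p = 2.30e-06). *Sox17* had 37, 30 and 35 UMIs, the last from fewer cells, and rose by 1.49 ± 0.34 (adjusted p = 0.00340). It was not called by DESeq2 (adjusted p = 0.443), and it turned to -1.70 (adjusted p = 0.542) among male-typed EC3 cells, of which *Angpt1*ΔNC had 10. *Rgcc* stood at -0.53 (adjusted p = 0.0909). The summed hemoglobin level also differed, at 86.4 and 42.1 in EC3 of the controls and 0.648 in *Angpt1*ΔNC. No hemoglobin UMI was found in 90 of 118, 100 of 118 and 41 of 58 EC3 cells. In these cells the *Plvap* level was 43.3, 42.9 and 18.1 and the *Ihh* level 1.96, 1.87 and 0.244. The part of hemoglobin in these differences was not tested.

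In EC2, 2 of the 6 genes tested passed, against 5.36% of 4705 genes (3.36% higher and 2% lower). *Plvap* fell by 1.63 ± 0.30 on the log2 scale (edgeR adjusted p = 9.04e-06), and *Rgcc* fell by 1.19 ± 0.30 (adjusted p = 0.00343), the latter not called by DESeq2 (adjusted p = 0.445). In EC4, 0 of 8 genes tested passed, against 2.95% of 6812 genes (2.14% higher and 0.807% lower). Of these 8, 2 had an unadjusted edgeR p under 0.05, and 2 were called without the filter on low counts. On simulated counts the fit recovered 21.4% of 2-fold changes in EC4, so a gene without a call may still have changed. *Plvap* had 1543, 1478 and 1391 UMIs in EC4 and stood at -0.08 ± 0.17. *Ihh* had 16 and 10 UMIs in the controls and 1 in *Angpt1*ΔNC, a ratio of 0.0705 per UMI of the label (exact 95% interval 0.00172 to 0.429), with an edgeR adjusted p of 0.135. The interval covers counting error only and takes UMIs as independent, although those of the controls came from 7 and 8 cells. *Ephb4* stood at -0.80 ± 0.35 (adjusted p = 0.292). Stroma markers in EC4 summed to 0.809 and 1.30 in the controls and to 7.76 in *Angpt1*ΔNC, and their part in these values was not tested.

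Whether the change differed between labels was tested in 1 edgeR fit over EC2, EC3 and EC4 with library as a block, chosen after the data were seen. Of the genes tested, 0.916% were called for EC4 against EC3 and 0.358% for EC2 against EC3. The *Plvap* change was higher in EC4 than in EC3 by 0.77 ± 0.18 log2 units (adjusted p = 0.0269), and the *Sox17* change was lower in EC2 than in EC3 by 1.82 ± 0.42 (difference -1.82, adjusted p = 0.0437). For *Ihh* the difference between EC4 and EC3 (-0.90 ± 1.18) was not resolved at this depth.

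**Figure D3:**
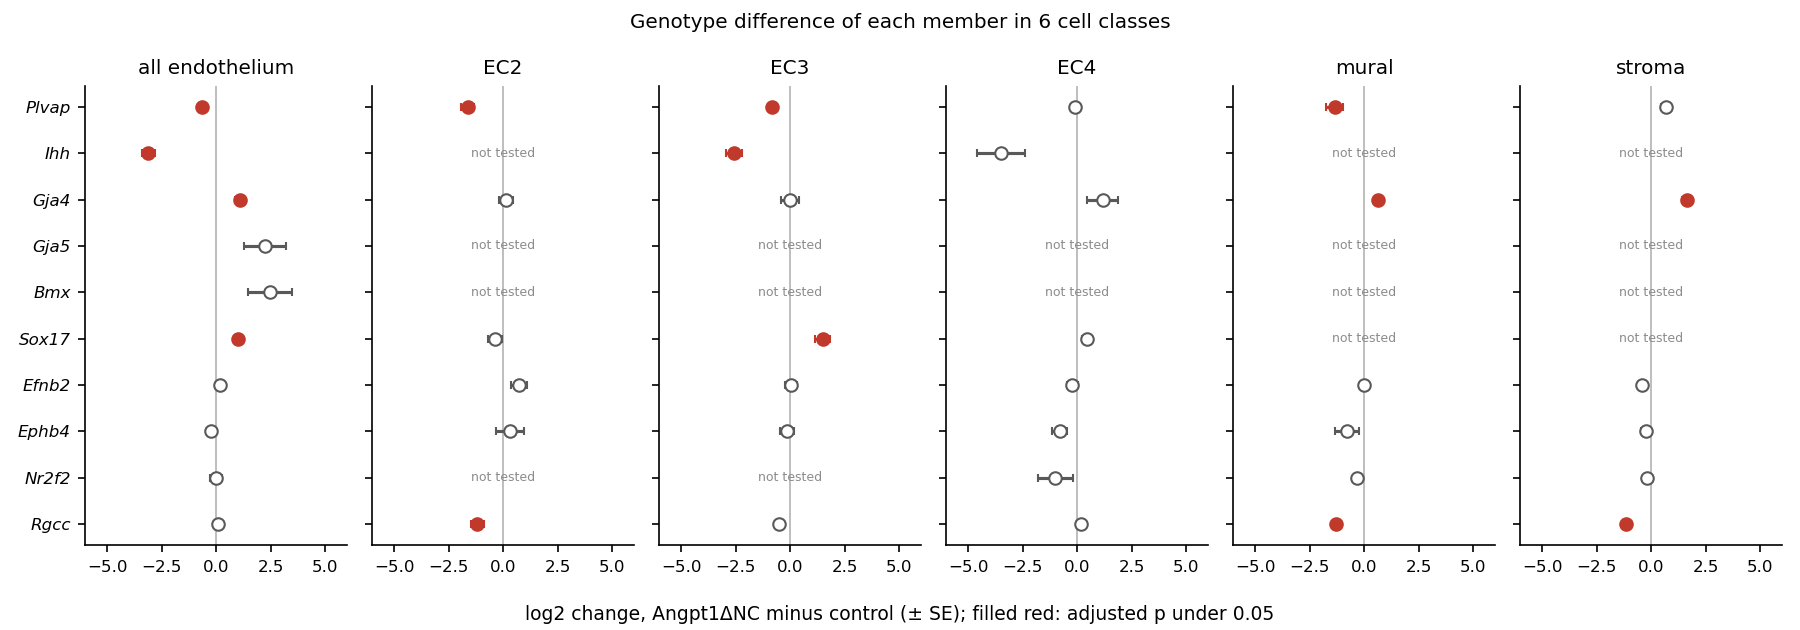
Log2 change of *Angpt1*ΔNC against the 2 controls with its SE (horizontal axis) for each gene tested in the whole endothelium, EC2, EC3, EC4, the mural clusters and the stroma, from edgeR fits over all genes. Filled red points passed an adjusted p of 0.05. *Plvap* fell in the whole endothelium, in EC2 and EC3 within it, and in the mural clusters at only 89, 113 and 10 UMIs. It did not pass in EC4 (-0.08) or in the stroma (0.67). *Ihh* fell in the endothelium and EC3, and *Rgcc* in EC2, the mural clusters and the stroma.

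Among related zonation genes in the whole endothelium, the venous list had the most calls. Of its 15 tested genes 7 rose and 2 fell, with a median log2 change of 0.36 against -0.02 over all genes, of which 8.12% rose and 4.82% fell. *Vwf*, the gene of von Willebrand factor, rose by 1.55 (edgeR adjusted p = 1.59e-07) and *Ackr1*, the atypical chemokine receptor of venules, by 1.77 (adjusted p = 0.00856), with *Il1r1*, *Cpe*, *Vcam1*, *Lrg1* and *Icam1* also higher. *Emcn*, the gene of the sialomucin endomucin, was among those that fell (-0.87). Of 17 arterial list genes, the NOTCH target *Hey1* (1.25), *Stmn2* (1.21) and *Notch1* (0.45) rose and *Fbln5* (-0.94) fell, with a list median of 0.07. Of 19 capillary and fenestrated list genes 3 rose, *Spock2* (2.27), *Rbp7* (1.63) and *Plpp3* (0.47), and 5 fell, the fatty acid carrier *Fabp4* (-2.62), the peptide ligand *Apln* (-3.43), the fatty acid receptor *Cd36* (-2.02), *Plpp1* (-0.95) and *Exoc3l2* (-0.64). That list's median was 0.07. Lymphatic markers rose in 5 of 6 genes, beside LEC cells numbering 3, 1 and 12, and stroma markers in 3 of 4. In blood endothelium alone (EC2 to EC4, a setting added after the data were seen) all 8 capillary and fenestrated calls remained, while none of the 4 arterial calls did. Of the lymphatic markers only 2 could be tested there and none was called, whereas all 3 stroma markers were. Among male-typed cells these 8 capillary and fenestrated calls remained too, but only 3 of the 9 venous calls did, without *Vwf* (0.41, adjusted p = 0.377). DESeq2 called 5 of the 8 capillary and fenestrated genes, with 1 left without an adjusted p, 3 of the 9 venous and none of the 4 arterial genes. With equal numbers of cells 7, 6 and 4 of these calls remained.

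Within EC3, where *Plvap* and *Ihh* fell, 6 of the 16 capillary and fenestrated genes tested fell and 3 rose, and 5 of 13 venous genes rose and 1 fell, beside 4.85% of all genes higher and 2.45% lower. *Apln* fell by 3.62 (edgeR adjusted p = 1.02e-05), and *Kdr*, the gene of VEGF receptor 2, fell by 0.62 (adjusted p = 0.0267). *Cd300lg* (-1.45), *Plpp1* (-0.97) and *Exoc3l2* (-0.86) also fell, and *Fabp4* had no UMI in *Angpt1*ΔNC. *Spock2* (3.48), *Gpihbp1* (1.18) and *Plpp3* (0.46) rose, as did the venous list genes *Vwf* (2.37), *Cpe* (1.64), *Lrg1* (0.94), *Icam1* (0.63) and *Nrp2* (0.62). *Emcn* fell by 0.96. Of 14 arterial list genes *Hey1* rose (1.19), and *Nrp1* (-0.72) and *Sema3g* (-1.89) fell. Among male-typed cells, 1 of these 9 capillary, 3 of 6 venous and none of 3 arterial calls remained, and DESeq2 called 4, 2 and none.

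The receiving side of the hedgehog pathway was measured in the 11 TM labels, whose UMIs were summed as stroma. Of the 12 pathway genes tested there 3 fell and none rose, against 8.97% of 13942 genes called (3.46% higher and 5.52% lower), and the list's median log2 change was -0.02, beside -0.01 over all genes. *Ptch1*, the hedgehog receptor and a target of its own pathway, stood at 28.4 and 29.4 CPM in the controls and 10.6 in *Angpt1*ΔNC (-1.44 ± 0.17, edgeR adjusted p = 0.00148). *Gli1*, the transcription factor induced by the pathway, stood at 7.39, 6.61 and 2.83 (-1.30 ± 0.26, adjusted p = 0.0190). *Hhip*, the secreted hedgehog-binding inhibitor, stood at 7.76, 7.11 and 2.57 (-1.53 ± 0.26, adjusted p = 0.00991). *Smo*, which transmits the signal and is not itself a usual target, stood at 0.05. In single labels *Ptch1* lay below both controls in 9 of 11, *Gli1* in 7 and *Hhip* in 7, and above both in 2, 1 and 2, so these falls were not in every label. With the TM labels in equal proportions *Ptch1* (-0.79, adjusted p = 0.00435) and *Hhip* (-1.02, adjusted p = 0.0125) were still called and *Gli1* was not (-0.68, adjusted p = 0.0681). *Gli1* was also not called by DESeq2 (adjusted p = 0.135) or among male-typed cells (adjusted p = 0.0514), and with equal numbers of cells *Hhip* was not called either (adjusted p = 0.0545). Whether the level of *Ihh* and that of these genes are linked was not tested. In the mural clusters *Gli1* fell as well (-2.13, adjusted p = 0.0271, but 0.254 among male-typed cells and 0.0912 with equal numbers of cells), while *Gas1* (0.96) and *Sufu* (0.98) rose among 9 genes tested, neither of them called by DESeq2.

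**Figure D4:**
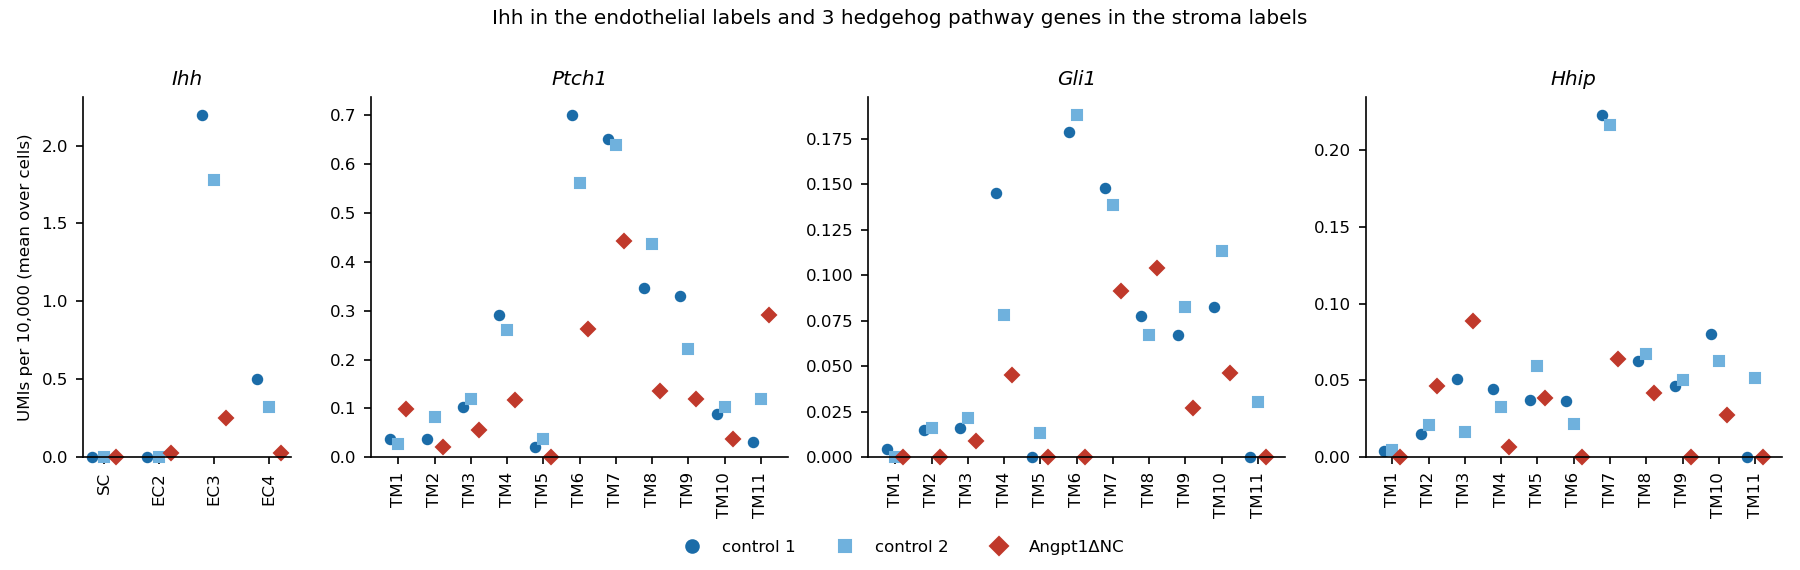
Level per 10,000 of *Ihh* in the endothelial labels and of *Ptch1*, *Gli1* and *Hhip* in TM1 to TM11, with 1 point per library. *Ihh* is highest in EC3 of the controls (2.20 and 1.78), and *Ptch1* in TM6 stands at 0.701 and 0.562 in the controls and 0.262 in *Angpt1*ΔNC.

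*Gja4* and *Rgcc* changed outside the endothelium. In the mural clusters 3 of 6 genes tested passed, against 16.4% of 11606 genes (9.12% higher and 7.23% lower). *Gja4* stood at 858 and 660 CPM in the controls and 1195 in *Angpt1*ΔNC, a change of 0.66 ± 0.15 (edgeR adjusted p = 0.00602). The makeup of the class differed, however, with 387, 499 and 54 cells in cluster 19 and 461, 512 and 222 in cluster 20. With the 3 clusters in equal proportions *Gja4* stood at -0.09 (adjusted p = 0.630). *Rgcc* fell by 1.28 ± 0.18 (adjusted p = 0.000126) and *Plvap*, at only 89, 113 and 10 UMIs, fell by 1.35 ± 0.38 (adjusted p = 0.0230); both were still called in equal proportions (-1.70 and -1.16), but *Plvap* was not among male-typed cells (adjusted p = 0.510).

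In the stroma 2 of 6 genes passed, against 8.97% of all genes tested (3.46% higher and 5.52% lower). *Gja4* had 611 and 1042 UMIs in the controls and 1904 in *Angpt1*ΔNC, a change of 1.62 ± 0.20 (edgeR adjusted p = 0.00214). Most of these UMIs in *Angpt1*ΔNC, 73.3%, came from TM9, against 24.4% and 14.8% in the controls. TM9 held 149, 154 and 1395 of these UMIs, in 204, 298 and 327 cells, of which 15.2%, 12.8% and 55.0% were positive. Without TM9, an alternative added after the data were seen, *Gja4* stood at 0.12 (adjusted p = 0.837). *Angpt1*ΔNC also lay above both controls in TM8 (0.145, 0.277 and 0.957 per 10,000), TM6 (0.0803, 0.0319 and 0.637), TM7 (0.0617, 0.166 and 0.340) and TM3 (0.922, 1.26 and 1.41), and below both or between them in the other TM labels. Over the 10 mural markers, TM9 summed to 6.77, 6.76 and 9.17 per 10,000, with 1, 0 and 1 at 0. *Tagln*, which encodes an actin-binding protein of smooth muscle, was higher there in *Angpt1*ΔNC (1.01, 1.42 and 4.86), but the pericyte gene *Rgs5* was not (0.151, 0.0953 and 0.0433).

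*Rgcc* fell in the stroma, from 705 and 602 CPM in the controls to 290 in *Angpt1*ΔNC (-1.17 ± 0.17, edgeR adjusted p = 0.00409), and the difference was spread over the labels. Of the 33 labels other than LEC with a control mean of 0.1 or more, *Rgcc* lay below both controls in 31 and above both in 1, cluster 5. Over all genes and labels at that level, 45.8% of values lay below both controls and 31.1% above both. In EC4 *Angpt1*ΔNC (13.6) lay between the controls (14.2 and 11.95). *Plvap* lay below both controls in 13 of 16 labels, *Efnb2* in 17 of 26, *Ephb4* in 8 of 12, *Nr2f2* in 9 of 23 and *Gja4* in 8 of 18. *Sox17* lay below in 0 of 4 and above in 3. Labels of 1 library share that library, so these counts describe 3 libraries and are not replicates.

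**Figure D5:**
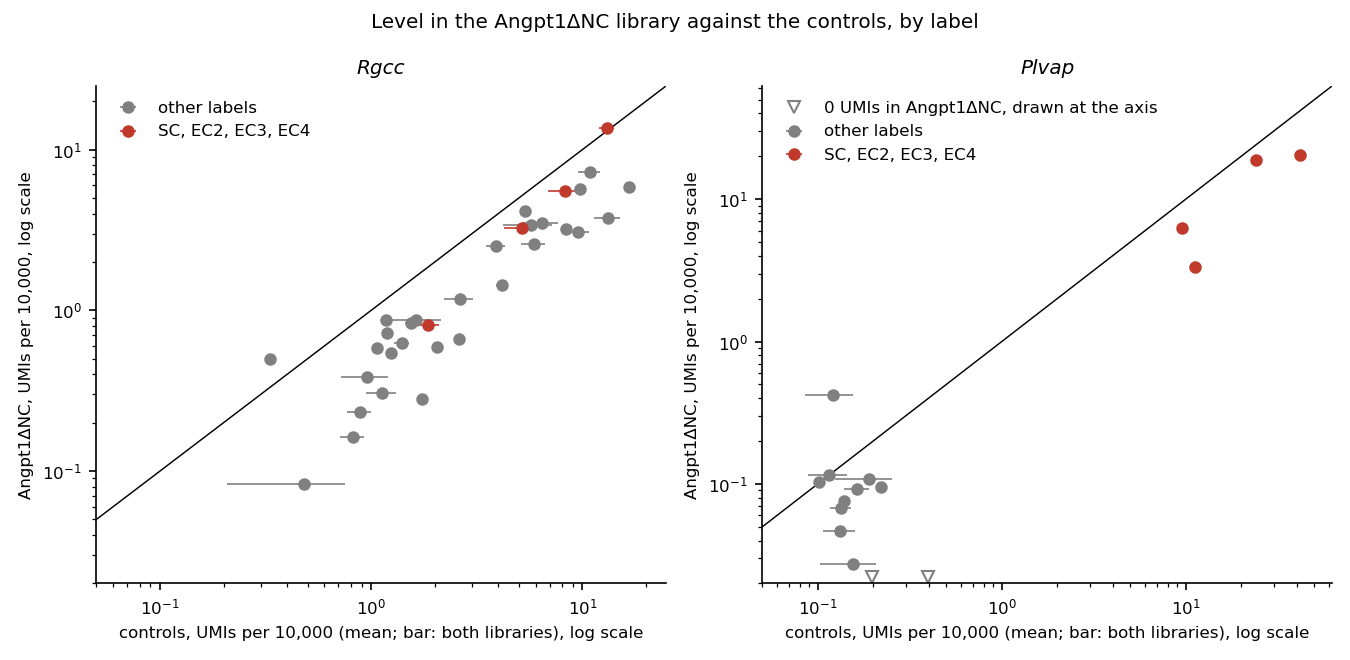
Level of *Rgcc* and of *Plvap* in *Angpt1*ΔNC (vertical axis) against the control mean (horizontal axis), UMIs per 10,000 on log axes, with 1 point per label and a line of equality; triangles mark labels without a UMI in *Angpt1*ΔNC. For *Rgcc* nearly all labels lie below the line, with TM11 at 5.86 in *Angpt1*ΔNC, whereas EC4 lies on it at 13.6.

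The genes whose levels ran most like each member were ranked by Pearson's r of log2 of the level plus 0.1, over 12 points (SC, EC2, EC3 and EC4 in each library) and 7710 other genes found in 10% or more of the cells of a label. The 12 points share libraries and depth, so r is a description. For *Plvap* these were *Plpp1* (r = 0.947), *Ednrb* (0.934) and *Fbxl12* (0.931). For *Ihh* they were *Gm11707* (0.9804), *Apln* (0.943) and *Ifngr2* (0.935), and *Apln* was, like *Ihh*, highest in EC3 of the controls, at 0.816. For *Gja4* they were *C1qtnf1* (0.967), *1810037I17Rik* (0.965) and *Gpr4* (0.943). *Sox17* ran most like *Smco4* (0.879), *Sparcl1* (0.872) and *Map2k3* (0.847), *Efnb2* like *Ncoa4* (0.901), *Unc5b* (0.876) and *Mat2a* (0.837), and *Ephb4* like *Cdc26* (0.891), *Rala* (0.890) and *Dync1li2* (0.866). *Nr2f2* ran like *Rps3a1* (0.958) and the NOTCH ligand gene *Jag1* (0.953), and *Rgcc* like *Grasp* (0.98), *Itm2a* (0.979) and *Dusp5* (0.957). For the sparse *Gja5* and *Bmx* the closest were *Slfn5* (0.788), *Shroom2* (0.783) and *Nod1* (0.772), and *Mrpl33* (0.927), *Tap2* (0.892) and *Ppp1r9b* (0.875), over 7711 genes.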

How the data were processed

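UMI counts of 3 droplet libraries were used as deposited. The authors made these counts with Cell Ranger (2.1.1 in the submitters' processing notes, 3.0.2 in the matrix header) on mm10 and clustered the cells with Seurat 3.1.3. Cells were kept that passed the study's filter (a minimum of 200 genes and 1000 UMIs and a maximum of 10% of UMIs from mitochondria) and carry a deposited label. The authors also deposited tables of labels with integrated natural log values of 3467 genes, of which only the labels were used. No per-sample column was left unused (0). The authors removed doublets with scDblFinder, so the labelled cells are those left after it, and no further doublet calling was done.

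A level is the UMIs of a gene per 10,000 of a cell's UMIs, averaged over cells. Shares carry exact 95% (Clopper-Pearson) and UMI sums exact Poisson intervals (scipy 1.17.1, numpy 2.4.6, pandas 2.3.3, Python 3.11.15), and a share of 0 is given with the limit that 3 cells set. For genotypes, counts were summed per library and class and tested with edgeR 4.0.16 in R 4.3.3 (TMM factors, filterByExpr, quasi-likelihood test; p-values adjusted by Benjamini-Hochberg over all genes tested, threshold 0.05), with 2 controls against 1 *Angpt1*ΔNC library. Nothing says how far the pools are separate litters or preparations. Spread between replicate libraries comes from the 2 controls alone, with 1 residual degree of freedom. For the rest edgeR draws on the spread of other genes (median prior degrees of freedom 7.77 in the stroma, 36.6 in EC3, not finite in EC2). The p-values thus do not measure the spread between *Angpt1*ΔNC pools. On simulated counts the fit recovered 21.4% of 2-fold and 78.4% of 4-fold changes in EC4. It recovered 21.6% and 63.3% in EC3, and 8.70% and 64.7% in EC2. Alternatives were DESeq2 1.42.0, RLE size factors, no filter, male-typed cells (Y-linked UMIs and no *Xist*), equal numbers of cells, labels in equal proportions and leaving out each control.

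Genes named are the 10 members with values in every library, the 3 genes most like each, the 2 genes of each zonation list with the largest ratio between endothelial labels, and list genes past an adjusted p of 0.05. Members and lists were chosen with earlier results of these data known. *Depp1* of the arterial list was not analysed here, and 2 genes that this rule would name are not reported here. Promoter windows are from RefSeq (GRCm38.p6) and gene spans from the annotation of GRCm38.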

Additional observations from a re-analysis of the deposited data

Results flagged for a closer look

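The *Plvap* change between genotypes differed between labels: it was 0.77 log2 units higher in EC4 than in EC3 (edgeR, SE 0.18, adjusted p = 0.0269). The levels were 24.4, 24.0 and 18.9 per 10,000 in EC4 and 42.6, 40.5 and 20.4 in EC3, for control replicates 1 and 2 and *Angpt1*ΔNC. Stroma markers in EC4 were at 0.809, 1.30 and 7.76, and their part in the difference was not tested.

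The *Sox17* change differed between EC2 and EC3, by -1.82 log2 units (SE 0.42, adjusted p = 0.0437). The levels were 1.33, 1.34 and 1.70 in EC2 and 0.272, 0.206 and 0.582 in EC3. The EC3 values rest on 37, 30 and 35 UMIs. The fit is on summed UMIs, where EC2 stood at 193, 203 and 155 CPM (-0.36, adjusted p = 0.679), although the mean over its cells was higher in *Angpt1*ΔNC. Among male-typed cells the change was 0.12 in EC2 and -1.70 in EC3, the opposite order, and DESeq2 did not call the EC3 change (adjusted p = 0.443).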

How the results depend on the processing

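Of the values given for single genes under another setting or without 1 control, 345 kept their direction and their side of the threshold (or moved by less than the controls' spread), 7 calls were lost and 12 gained, 31 untested values moved by more than that spread, and 20 values turned in direction. DESeq2 called fewer genes: 257 in the whole endothelium, 20 in EC2 (with 1 of the 10 genes), 121 in EC3, 85 in EC4, 564 in the mural clusters and 636 in the stroma, against 1250, 252, 581, 201, 1898 and 1251. In male-typed cells 134 genes were called in EC2 (4 of the 10), 151 in EC3 and 535 in EC4 (2 of the 10). EC4 gave 382 genes with RLE size factors, 504 without a filter (2 of the 10) and 483 with equal numbers of cells. The stroma gave 2441 without a filter, 538 with equal numbers of cells and 757 without TM9, where *Efnb2* fell by 0.95 (adjusted p = 0.0299), and the mural clusters 3575 in equal proportions. *Rgcc* in the whole endothelium was called among male-typed cells (0.51, adjusted p = 0.0140), of which EC4 held 44 of the 66 in *Angpt1*ΔNC. The cause of these differences was not tested.

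Turned in direction, with no call in either setting unless named: in the whole endothelium *Nr2f2* (0.011 with RLE, 0.017 with DESeq2, 0.019 in male-typed cells, -0.14 to 0.16 without 1 control) and *Rgcc* (-0.067 in equal proportions, -0.091 to 0.27 without 1 control); in EC2 *Sox17* (0.12, male-typed), *Ephb4* (-0.045 to 0.92 without 1 control) and *Gja4* (-0.38 to 0.73 without 1 control); in EC3 *Sox17*, called in all cells, at -1.70 in male-typed cells, and *Efnb2* (-0.028, equal numbers); in EC4 *Plvap* (0.13, male-typed); in the mural clusters *Efnb2* (0.15 male-typed, 0.11 with equal numbers, -0.084 to 0.029 without 1 control) and *Gja4*, called in the cells as found, at -0.090 in equal proportions; in the stroma *Ephb4* (0.11, male-typed) and *Nr2f2* (0.24 in equal proportions). The log2 ratio of EC2 to EC4 turned for *Bmx* without control replicate 1 (-0.086 to 0.31 without 1 control) and for *Gja5* in *Angpt1*ΔNC alone (-1.04). Of the 10 genes, 5 had their highest control level outside the endothelium, or 2 without control replicate 2. That lower count rests on few UMIs. In control replicate 1, *Efnb2* (1 UMI) and *Nr2f2* (2 UMIs) were highest in LEC, with 3 cells, and *Bmx* (1 UMI) in EC2. The share of control cells with an arterial gene and *Nr2f2* was 1.71% after thinning and 5.66% without *Efnb2*. Without 1 control the fits have 1 library in each group and give values without a test. No paired analysis was possible because no pairing of libraries is recorded and *Angpt1*ΔNC has 1 library. Depth limits *Gja5* and *Bmx* in every label and *Ihh* outside EC3. Settings with equal proportions in the mural clusters and stroma, without TM9, and in *Angpt1*ΔNC alone were chosen after the data were seen.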

Other observations

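Relatives of the arterial transcription factor and connexins were measured beside them. *Sox7*, a SOXF factor like *Sox17*, stood at 129 and 142 CPM in the endothelium of the controls and 284 in *Angpt1*ΔNC, a log2 change of 1.06 ± 0.16 (edgeR adjusted p = 4.86e-06), above both controls. It rose in EC2 (0.88, adjusted p = 0.0309) and in EC3 (1.42, adjusted p = 3.67e-06) and stood at 0.96 in EC4 (adjusted p = 0.0522). The EC2 call was lost with DESeq2 (adjusted p = 0.996), without a filter (0.0644), with equal numbers of cells (0.0956) and among male-typed cells (-0.16, adjusted p = 0.906), and the EC3 call among male-typed cells (1.05, adjusted p = 0.0794). The call in the whole endothelium held in every setting run. The third SOXF gene, *Sox18*, stood at 299, 255 and 244 CPM (-0.18, adjusted p = 0.538). *Gja1*, which encodes connexin 43, stood at 233, 343 and 395 CPM in the endothelium (0.45, adjusted p = 0.0840) and rose in EC3 (0.79, adjusted p = 0.00950), but was not called there by DESeq2 (adjusted p = 0.282) or among male-typed cells (adjusted p = 0.234). Of the 6 such genes tested in the whole endothelium *Sox7* alone was called, and of 5 Eph and ephrin genes *Efna1* alone (0.49, adjusted p = 0.0417), beside 12.9% of all genes. *Efna1* was called with RLE size factors and in cells with *Cdh5* and *Pecam1* UMIs, and in none of the other 6 settings (adjusted p = 0.0676 to 0.625).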
